A study of Mus musculus with 8 samples.

Results

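Sphingolipid metabolism was followed through 9 mouse genes, Sgpp1, Sgpl1, Sphk1, Sphk2, Sgms1, Asah1, S1pr1, Sptlc1 and Sptlc2, of 18193 genes with a probe set on the arrays. Their 22 probe sets, of 45037 tested, were those annotated to 1 of these symbols alone. Per gene, the main probe set was selected by its brightness, the highest mean log2 signal over the 8 arrays. The list is named for Sgpp1 and was drawn up after its lower signal under treatment was known, so the treatment values of the members are given as a description of these arrays and the adjusted p-values beside them as their place among all probe sets. Of the 9 products 8 are enzymes or enzyme subunits, and S1pr1 is a cell-surface receptor.

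The cells were bone marrow-derived dendritic cells (BMDCs) from female BALB/c mice, 6 weeks old by the methods, grown for 9 days in GM-CSF. The GM-CSF was at 200 U/mL in the labels, whereas the methods give 1000 U/mL. They received 75 μg/mL of [BF/S+L/Ep], a butanol fraction of an extract from stem and leaf of Echinacea purpurea, dissolved in DMSO, or 0.1% DMSO alone. Each treatment was read at 4 h and at 12 h on 2 Affymetrix arrays, 8 arrays in 4 groups. The labels call the arrays duplicates and the study describes them as biological replicates of the cell cultures. Whether the 2 of a group came from separate mice is not given in the sources, so a p-value measures the spread between these arrays only. The comparisons asked which transcripts the extract changed in immature BMDCs, and GM-CSF cultures hold other myeloid cells beside dendritic cells.

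Sphingolipids are built on a long-chain base. Serine palmitoyltransferase, with Sptlc1 and Sptlc2 as subunits, starts its synthesis, and the base then becomes ceramide, from which sphingomyelin and glycosphingolipids are made. Ceramidases such as Asah1 release sphingosine, which the kinases Sphk1 and Sphk2 turn into sphingosine-1-phosphate (S1P). S1P is removed either by phosphatases such as Sgpp1, which give sphingosine back, or by the lyase Sgpl1, which cleaves it for good. Outside the cell S1P acts on receptors such as S1pr1, and its gradient between tissue and blood or lymph guides the movement of lymphocytes and dendritic cells.

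The median signal of the arrays was between 86.4 and 103.7, and a background reference was between 66.5 and 107. It is the 95th percentile, on each array, of 86 smell and taste receptor probe sets, transcripts not anticipated in these cells. The reference was lower on the 4 arrays with the extract, between 66.5 and 75.6, than on the 4 with DMSO, between 79.5 and 107, and 53.2% to 54.9% of all probe sets exceeded it there against 48.8% to 51.8%. Of the 9 main probe sets, 8 were above the reference on all 8 arrays, and that of Sphk1 was above it on 4. Markers of dendritic cells exceeded the reference in 9 of 9 genes and those of macrophages in 6 of 6, each on 4 or more arrays, while B cell markers were above it for 0 of 3 and erythroid markers for 0 of 2. The ratio of 3′ to 5′ control signal was between 0.65 and 0.76 for Gapdh and between 1.18 and 1.26 for actin. For Gapdh it was between 0.70 and 0.76 on the 4 h arrays and between 0.65 and 0.68 on the 12 h arrays, while for actin the times overlapped. The part of this difference in the changes between the times was not tested.

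Sgpp1, the S1P phosphatase of the endoplasmic reticulum, had a lower signal in the treated cells at both times. At its main probe set, 1420822_s_at, the signal was 2469 and 2563 on the DMSO arrays and 1905 and 1892 on the [BF/S+L/Ep] arrays at 4 h. At 12 h it was 2288 and 1951 with DMSO and 1447 and 1354 with [BF/S+L/Ep]. Both treated arrays lay under both control arrays at each time, and the lowest signals were those of the extract at 12 h. The log2 fold change, treated against DMSO, was -0.41 at 4 h (SE 0.11, adjusted p = 0.899 in limma) and -0.59 at 12 h (SE 0.11, adjusted p = 0.165). Averaged over both times it was -0.50 (SE 0.08, 95% interval -0.67 to -0.33, adjusted p = 0.0344), a signal 1.41-fold lower. This was the 1 member called on the average, where 0.107% of all probe sets were called and 0.0178%, 8 in all, were called lower. The call was lost when any 1 of the 8 arrays was left out (adjusted p between 0.0646 and 0.279, log2 fold change between -0.56 and -0.44). It was also lost when the arrays were centred on their medians (-0.44, adjusted p = 0.204), with robust moderation of the spread (0.0570) and without the intensity trend (0.575), under which no probe set was called in any comparison. In an RNA extract of all cells, fewer cells with the transcript and less of it per cell cannot be told apart.

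The effects at 4 h and 12 h did not differ beyond their error in Sgpp1 (12 h minus 4 h -0.19, SE 0.16, 95% interval -0.54 to 0.16, adjusted p = 1.0). No member was called at 4 h, where 0.00444% of all probe sets passed, nor at 12 h, where 0.02% passed. Without adjustment, 1 of the 9 main probe sets had a p under 0.05 at 4 h, as did 4.97% of all probe sets, and 3 had one at 12 h, as did 5.96% of all. For the difference between the times 0% of all probe sets passed, and 1 member, Sgms1, had an unadjusted p under 0.05, as did 3.66% of all.

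Sgpp1 has 2 further probe sets. 1420821_at read 1282 and 1571 with DMSO against 942 and 1003 with the extract at 4 h, and 1406 and 946 against 874 and 704 at 12 h. It was thus lower without overlap at both times as well, with an averaged log2 fold change of -0.55 (SE 0.13, adjusted p = 0.249). 1450015_x_at, whose suffix marks probes that may bind other transcripts, read 820 and 700 with DMSO and 524 and 829 with the extract at 4 h, where the groups overlapped. At 12 h it read 658 and 658 against 462 and 524, and its averaged log2 fold change was -0.31 (SE 0.14, adjusted p = 0.702). All 3 probe sets had a negative value at both times, and the main one alone was called. The suffix of that main probe set, 1420822_s_at, marks probes shared between transcripts, so it carries a like limit.

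**Figure D1:**
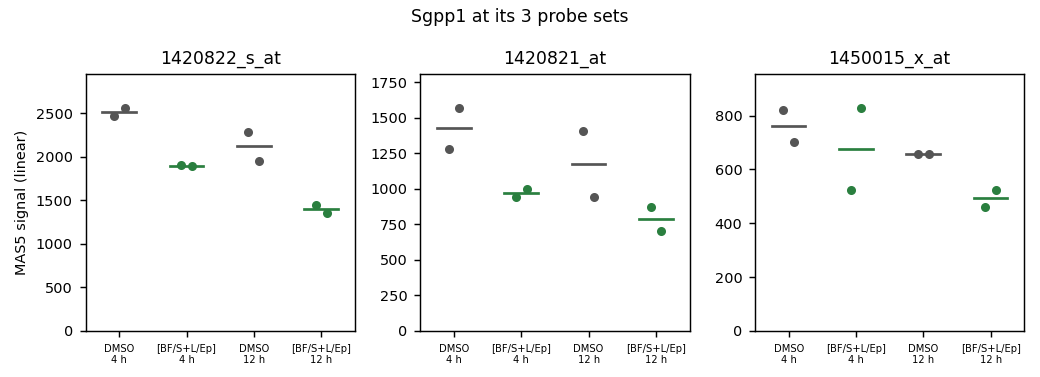
MAS5 signal (linear axis from 0) of the 3 Sgpp1 probe sets on each of the 8 arrays, with DMSO in grey and [BF/S+L/Ep] in green. Points are arrays and lines are means of 2 arrays. At 1420822_s_at and 1420821_at both treated arrays lie below both control arrays at each time, and at 1450015_x_at they overlap at 4 h.

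The promoter windows of both S1P-removing enzymes are shown for reference, since these were the members with a called probe set in any comparison. Each window runs from 250 bases before the start of the RefSeq transcript to 50 bases after it (GRCm38.p6) and is written 5′ to 3′ on the strand of the gene, which is minus for both. The window of Sgpp1 is chr12:75735680-75735979 and that of Sgpl1 is chr10:61147635-61147934. Capitals mark GCGTG, the core letters of the element bound by the aryl hydrocarbon receptor, a sensor of many plant compounds, or CACGC, the same letters on the other strand.
Sgpp1: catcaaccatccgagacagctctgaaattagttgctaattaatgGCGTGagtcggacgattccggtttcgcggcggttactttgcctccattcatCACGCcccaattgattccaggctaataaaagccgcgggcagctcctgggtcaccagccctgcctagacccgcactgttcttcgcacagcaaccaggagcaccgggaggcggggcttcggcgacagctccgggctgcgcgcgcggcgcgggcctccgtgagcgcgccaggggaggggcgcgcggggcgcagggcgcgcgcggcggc
Sgpl1: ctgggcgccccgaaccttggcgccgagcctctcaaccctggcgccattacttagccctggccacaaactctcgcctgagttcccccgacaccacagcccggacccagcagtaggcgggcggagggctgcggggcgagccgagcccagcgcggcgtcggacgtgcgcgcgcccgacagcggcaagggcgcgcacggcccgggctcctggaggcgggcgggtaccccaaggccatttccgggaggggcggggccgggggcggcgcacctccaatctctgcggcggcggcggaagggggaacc
The Sgpp1 window holds 2 matches, 1 on each strand, beginning 206 and 155 bases before the start, and the Sgpl1 window holds none. Of all 32851 promoter windows of this length 32.4% hold the letters on either strand, so a match is common. That share is over windows, and none was counted over genes. Binding of the receptor to these windows, and its part in the signals, was not tested. Windows were found for 7 members, 15 in all, of which 10 windows of 5 members hold the letters. Some of these are windows of Sphk1 that overlap each other and repeat the same sites, so the windows are not separate counts. The guanine and cytosine content was 66.0% in the Sgpp1 window and 75.3% in that of Sgpl1, beside a median of 52.7% over all windows.

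Sgpl1, the S1P lyase, had overlapping groups at 12 h and no call between treatments. Its main probe set, 1415892_at, read 3651 and 3462 with DMSO and 3098 and 3107 with [BF/S+L/Ep] at 4 h, with both treated arrays below both controls (log2 fold change -0.20, SE 0.10, adjusted p = 0.997). At 12 h it read 4190 and 4058 against 4389 and 4027, and the groups overlapped (0.03, SE 0.10, 95% interval -0.19 to 0.24). The averaged value was -0.08 (SE 0.07, adjusted p = 0.843). The other probe set of Sgpl1, 1415893_at, ranged from 440 to 1694 and its replicates differed widely, by 500 against 1030 with the extract at 4 h.

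The signal of Sgpl1 rose between 4 h and 12 h in the treated cells. The log2 fold change of 12 h against 4 h with [BF/S+L/Ep] was 0.44 (SE 0.10, 95% interval 0.22 to 0.65, adjusted p = 0.0316), a signal 1.36-fold higher, and it was the 1 member called in that comparison, where 2.86% of all probe sets were called. With DMSO the same comparison gave 0.21 (SE 0.10, adjusted p = 0.404), and both 12 h arrays lay above both 4 h arrays there too. The 2 changes did not differ beyond their error (difference 0.22, SE 0.14, 95% interval -0.08 to 0.53, adjusted p = 1.0). The call with the extract was lost without any 1 of the 8 arrays (adjusted p between 0.0517 and 0.262), with arrays centred on their medians (0.260), without the intensity trend (0.467) and in a fit of the 4 treated arrays alone (0.113). At 1415893_at the change was 0.79 (SE 0.33, adjusted p = 0.282) with the extract and 0.85 (SE 0.33, adjusted p = 0.280) with DMSO.

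Sgpp1 had values in the other direction over time. Its log2 fold change of 12 h against 4 h was -0.25 with DMSO (SE 0.11, adjusted p = 0.391) and -0.44 with [BF/S+L/Ep] (SE 0.11, adjusted p = 0.0629), and neither passed the threshold. On the arrays with [BF/S+L/Ep] the pair of S1P-removing enzymes thus had a called rise of the lyase beside an uncalled negative value of the phosphatase. With DMSO the signs were the same, 0.21 for the lyase and -0.25 for the phosphatase, without a call.

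The sphingosine kinases, which make S1P, had no call. Sphk2 at 1417431_a_at read 894 and 787 with DMSO and 715 and 775 with the extract at 4 h, and 1060 and 868 against 900 and 866 at 12 h. The treated arrays lay below both controls at 4 h and overlapped them at 12 h, and the averaged log2 fold change was -0.15 (SE 0.10, 95% interval -0.37 to 0.08, adjusted p = 0.811). Its other probe set, 1426230_at, was above the reference on 7 arrays and had -0.17 (SE 0.30, adjusted p = 0.942). Sphk1 was dim. Its main probe set, 1451596_a_at, read 57.2 and 96.4 with DMSO and 60.1 and 88.7 with the extract at 4 h, and 127 and 145 against 101 and 60.7 at 12 h. Only the DMSO group at 12 h was above the background reference on both of its arrays, and the value of -0.79 at 12 h (SE 0.53, 95% interval -1.94 to 0.35, adjusted p = 0.896) includes 0. Its value at 4 h was -0.02 and turned to 0.03 with quantile normalization or median centring. Its second probe set, 1420566_at, was above the reference on 1 array and had higher means with the extract, 46.1 against 18.9 at 4 h and 40.9 against 14.5 at 12 h (averaged log2 fold change 0.91, SE 1.12, adjusted p = 0.907).

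S1pr1, the receptor through which S1P draws cells toward blood and lymph, had 1 probe set, 1423571_at, not far above the reference. It read 97.5 and 137 with DMSO and 149 and 140 with the extract at 4 h, and 212 and 248 against 247 and 207 at 12 h. The treated arrays were above both controls at 4 h and overlapped them at 12 h, and the averaged log2 fold change was 0.15 (SE 0.22, 95% interval -0.33 to 0.63, adjusted p = 0.929). All 4 arrays at 12 h lay above all 4 arrays at 4 h. That difference was 0.99 on the log2 scale with DMSO (SE 0.31, adjusted p = 0.163) and 0.65 with the extract (SE 0.31, adjusted p = 0.389), so it did not pass the threshold in either treatment. Within a treatment, both 12 h arrays were above both 4 h arrays for 22.5% of all probe sets with DMSO and 22.0% with the extract.

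Asah1, the lysosomal acid ceramidase that frees sphingosine from ceramide, differed little. Its probe set 1416735_at read 7208 and 6579 with DMSO and 6313 and 6563 with the extract at 4 h, and 5857 and 6189 against 5302 and 6321 at 12 h. The averaged log2 fold change was -0.08 (SE 0.08, 95% interval -0.24 to 0.09, adjusted p = 0.880).

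Sgms1, which makes sphingomyelin from ceramide in the Golgi, was lower with the extract at 12 h at its main probe set, without a call. 1436499_at read 2857 and 2703 with DMSO and 3044 and 2728 with the extract at 4 h, where the groups overlapped. At 12 h it read 3475 and 3599 against 2874 and 2780, a log2 fold change of -0.32 (SE 0.10, 95% interval -0.55 to -0.10, adjusted p = 0.663). The DMSO arrays at 12 h stood above the other 6, with 0.35 against 4 h (SE 0.10, adjusted p = 0.130), while the extract gave -0.03 (SE 0.10, adjusted p = 0.956). The difference of the effects between 12 h and 4 h was -0.38 (SE 0.15, adjusted p = 1.0). The other 3 probe sets gave -0.13, 0.17 and 0.33 at 12 h, so the probe sets of Sgms1 did not share a sign.

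Sptlc1 was the member with the highest averaged value. Its main probe set, 1422690_at, read 1425 and 1525 with DMSO and 1557 and 1866 with the extract at 4 h, and 1463 and 1461 against 1619 and 1960 at 12 h. Both treated arrays were above both controls at each time, and the averaged log2 fold change was 0.25 (SE 0.09, 95% interval 0.05 to 0.45), with an unadjusted p of 0.0198 that did not pass over all probe sets (adjusted p = 0.620). The other 3 probe sets gave -0.03, -0.47 and 0.68, the last from 1422691_at, which was above the reference on the 4 treated arrays alone, where the reference itself was lower. Sptlc2 at 1460243_at read 1450 and 1424 against 1535 and 1543 at 4 h and 1588 and 1559 against 1400 and 1649 at 12 h, with an average of 0.02 (SE 0.08, 95% interval -0.16 to 0.20, adjusted p = 0.975). Its other 2 probe sets had averages of -0.10 and -0.04.

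**Figure D2:**
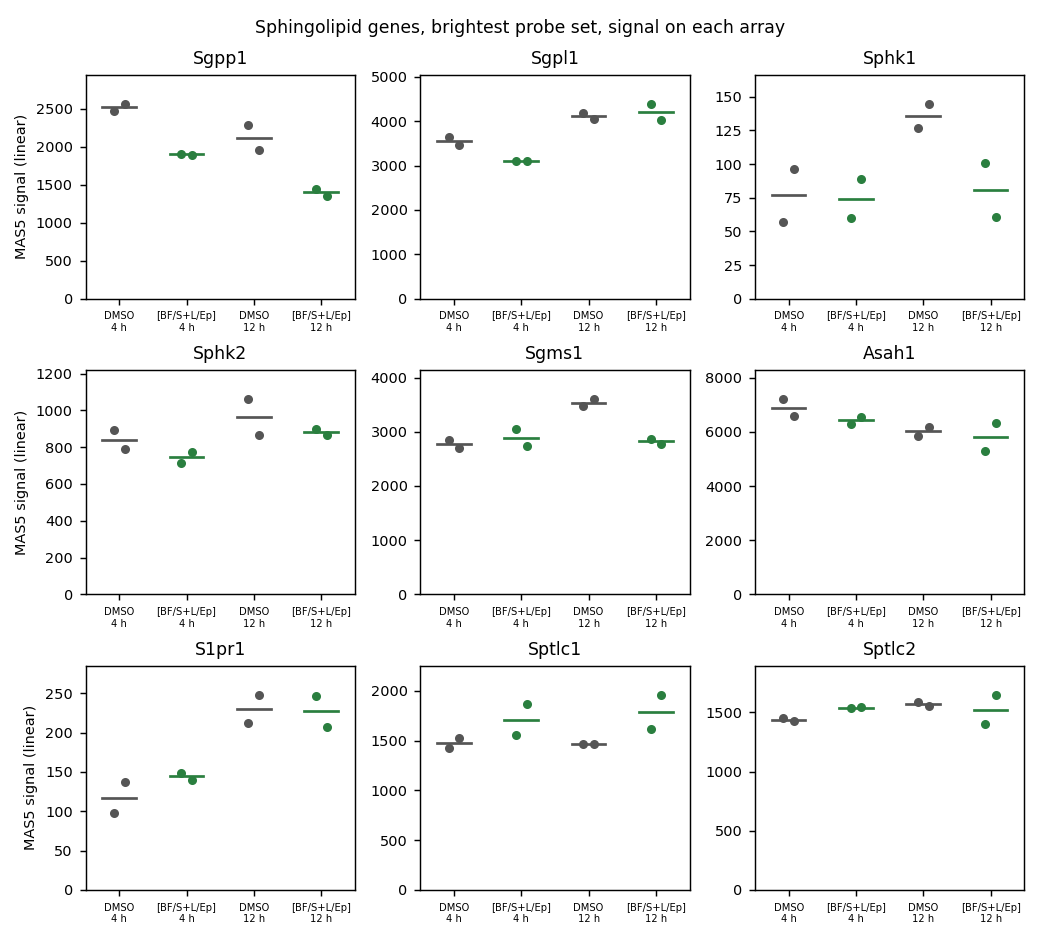
MAS5 signal (linear axes from 0, scaled per gene) of the main probe set of each of the 9 genes on the 8 arrays, with DMSO in grey and [BF/S+L/Ep] in green. Points are arrays and lines are means of 2 arrays. Sgpp1 is lower with the extract at both times and Sptlc1 higher, S1pr1 is higher at 12 h than at 4 h in both treatments, and Sphk1 is at or near background. Signals of different genes cannot be set against each other, since each probe set has its own response.

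Across the 9 main probe sets, 4 had a positive and 5 a negative log2 fold change at 4 h, and 2 a positive and 7 a negative one at 12 h. Their values at single times lay between -0.79 and 0.32. Both treated arrays were above both controls for 3 members at 4 h (15.1% of all probe sets) and for 1 member at 12 h (15.1% of all). They were below both controls for 4 members at 4 h (17.6% of all) and for 3 at 12 h (19.7% of all). Sgpp1 was the 1 member below both controls at both times, as were 4.29% of all probe sets. Sptlc1 was the 1 member above both controls at both times, and the share of all probe sets that were so was not counted. The median averaged log2 fold change of the members was -0.08, beside -0.02 over all probe sets.

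**Figure D3:**
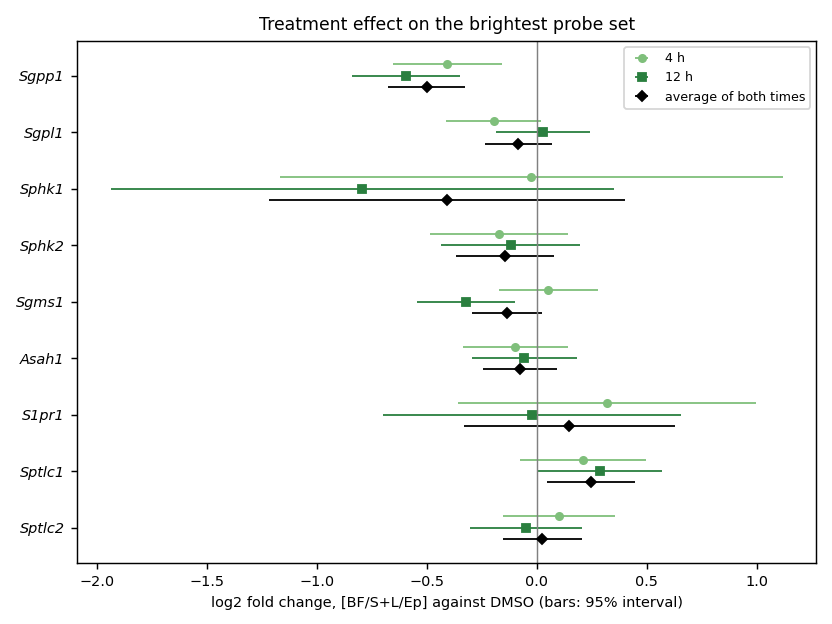
Log2 fold change of [BF/S+L/Ep] against DMSO at the main probe set of each gene, at 4 h, at 12 h and averaged, with 95% intervals from limma. The 3 intervals of Sgpp1 lie below 0, and that of Sgms1 does so at 12 h. The averaged interval of Sptlc1 lies above 0, as does, narrowly, its interval at 12 h. Those of Sphk1 and S1pr1 are the widest. The intervals are not adjusted for the number of probe sets tested.

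The wider pathway was read from 64 listed genes in 7 role groups, of which 59 had a probe set and 49 exceeded the background reference on 4 or more arrays. On the average of both times 28 of the 59 had a positive and 31 a negative log2 fold change, 0 were called higher and 1, Sgpp1, was called lower. In S1P metabolism and export 7 of 10 genes had a negative value. Negative values were held by 3 of 5 S1P receptors and 3 of 6 genes of the serine palmitoyltransferase group. They were held by 3 of 8 genes of ceramide synthesis and 2 of 7 of the sphingomyelin group. The counts were 5 of 8 for ceramidases, kinase and transfer and 8 of 15 for glycosphingolipids. In S1P metabolism and export, beside Sgpp1, the smallest p belonged to the S1P exporter Spns2 (-0.44, adjusted p = 0.756). Among the 5 S1P receptors S1pr3 had -0.62 (adjusted p = 0.822) and was above the reference on 0 arrays, and S1pr4 had 0.19 (adjusted p = 0.909). In the group of serine palmitoyltransferase, Ormdl1, which restrains that enzyme, had -0.09 (adjusted p = 0.884) next to Sptlc1. No gene of these groups other than Sgpp1 was called on the average.

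In the ceramide branch no gene was called on the average. Of 8 genes of ceramide synthesis, Cers6, a ceramide synthase, had -0.17 (adjusted p = 0.756) and Kdsr, which reduces the first product of the pathway, had -0.18 (adjusted p = 0.761). Of 8 ceramidases, kinase and transfer genes, the ceramide kinase Cerk had -0.24 (unadjusted p = 0.00743, adjusted p = 0.497) and the alkaline ceramidase Acer3 had -0.20 (adjusted p = 0.718). Its relative Acer2, named after its values were seen, had the highest average of the 49 genes, 0.87 (SE 0.47, adjusted p = 0.756). Its signals were near or under the reference, 75.2 and 125 with DMSO and 103 and 64.7 with the extract at 4 h, and 14.6 and 34.2 against 97.1 and 81.5 at 12 h, where both DMSO arrays were under it. Cptp, a ceramide-1-phosphate transfer protein, also named after its values were seen, had 0.50 at 4 h (SE 0.22, adjusted p = 0.997) and -0.22 at 12 h (SE 0.22, adjusted p = 0.941). Samd8, a relative of the sphingomyelin synthases, had -0.12 (adjusted p = 0.824) next to Sgms1. Of 15 glycosphingolipid genes, the galactosyltransferase B4galt6 had -0.21 (adjusted p = 0.716) and the glucosylceramidase Gba2 had -0.31 (adjusted p = 0.759).

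**Figure D4:**
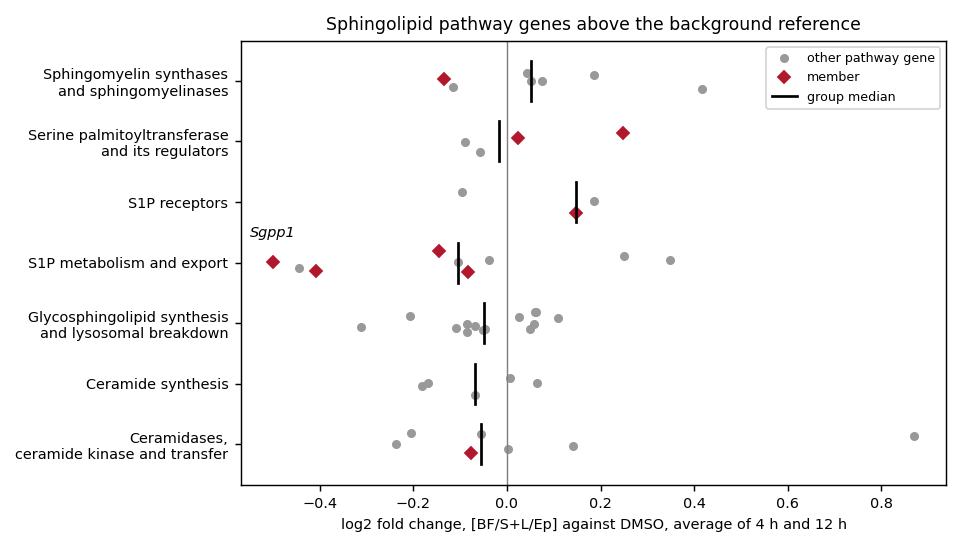
Averaged log2 fold change of [BF/S+L/Ep] against DMSO for the 49 pathway genes that exceeded the background reference on 4 or more arrays, 1 point a gene at its main probe set, in 7 role groups. Red diamonds are the 9 members, grey points the other 40 genes and black lines the group medians. Sgpp1 is at the left end, and most points lie within 0.25 of 0.

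Between 4 h and 12 h, 3 of the 59 pathway genes were called in DMSO, where 2.1% of all probe sets were, and 4 with the extract, where 2.86% were. All of these pathway genes were higher at 12 h. The 59 were read at their brightest probe sets, while the shares include dim ones. In a fit of 23406 probe sets above the reference on 4 or more arrays, 1211 were called in DMSO and 1684 with the extract. Over the whole array too, more probe sets were called between the times, 948 in DMSO and 1289 with the extract, than the 48 called for treatment on the average. Sgms2, the sphingomyelin synthase of the plasma membrane, rose by 1.22 with DMSO (SE 0.18, adjusted p = 0.00269) and by 1.75 with the extract (SE 0.18, adjusted p = 1.22e-04). The 2 rises differed by 0.53 (SE 0.25, 95% interval -0.02 to 1.08, adjusted p = 1.0). Galc, the lysosomal galactosylceramidase, rose by 0.71 (SE 0.12, adjusted p = 0.00932) and by 0.65 (SE 0.12, adjusted p = 0.0125). Cers6 rose by 0.58 (SE 0.13, adjusted p = 0.0343) and by 0.57 (SE 0.13, adjusted p = 0.0302), and the remaining call with the extract was Sgpl1. Leaving out 1 array at a time, the call of Sgms2 was lost in DMSO without DMSO 12 h replicate 1 (adjusted p = 0.0541) and not lost with the extract (at most 0.00435). That of Galc was lost without DMSO 4 h or 12 h replicate 2 in DMSO (adjusted p up to 0.156), and with the extract when replicate 2 of the treated arrays at 4 h or either of those at 12 h was left out (up to 0.103). That of Cers6 was lost without any 1 of the 4 DMSO arrays in DMSO (up to 0.281), and with the extract without either DMSO array at 4 h or any 1 of the same 3 treated arrays (up to 0.277). Galc and Cers6 also lost both calls with arrays centred on their medians, and Cers6 lost the call with the extract in a fit of the 4 treated arrays alone. No member was called in DMSO, where 4 main probe sets had an unadjusted p under 0.05, as did 12.4% of all probe sets. Both 12 h arrays were above both 4 h arrays for 5 members with DMSO (22.5% of all probe sets) and for 3 with the extract (22.0% of all).

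**Figure D5:**
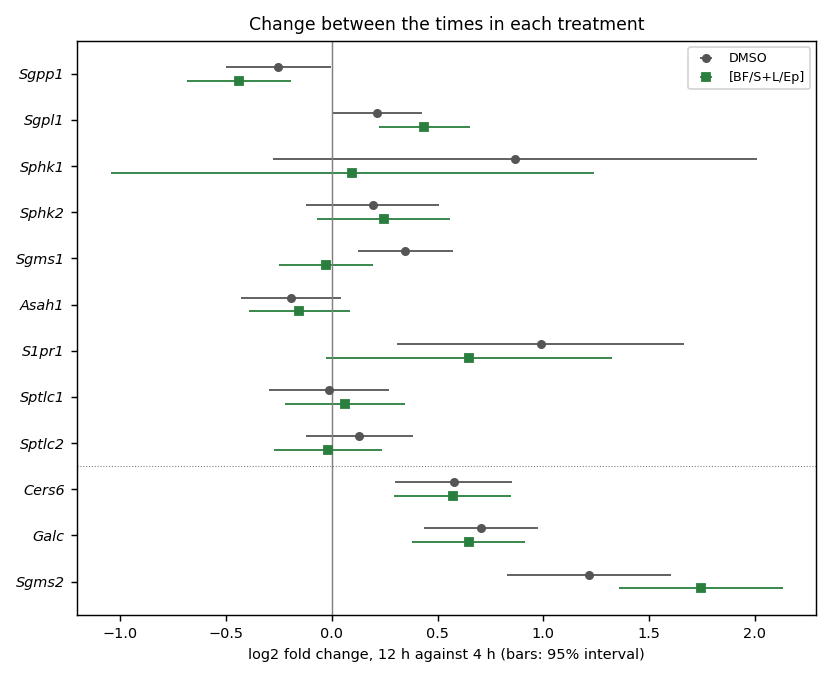
Log2 fold change of 12 h against 4 h in DMSO (grey) and in [BF/S+L/Ep] (green) for the 9 members, above the dotted line, and for Cers6, Galc and Sgms2, with 95% intervals from limma. Cers6, Galc and Sgms2 lie above 0 in both treatments, Sgpl1 is called with the extract alone, and Sgpp1 is on the negative side.

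The genes most like Sgpp1 over the 8 arrays were looked up by Pearson's r of log2 signals among 9447 genes above the reference on every array. They were Rnf141 (r = 0.979), Cav2 (0.975), Slc35a3 (0.970), Mex3b (0.970) and Tubb2a (0.967). As in Sgpp1, the mean signal of each was lower with the extract than with DMSO at both times, for Mex3b 989 against 1278 at 4 h and 799.8 against 1217 at 12 h, and for Cav2 2377 against 2792 and 1946 against 2414. These 8 points share their arrays and treatment groups, and the r is a description of likeness. The genes were chosen for that likeness, so their lower means with the extract come with the choice and are no separate evidence.

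Of 9 lists of marker genes for cell types, 4 had summed signals that did not overlap between treated and control arrays at 12 h. Of all single probe sets, 15.1% were higher and 19.7% lower without overlap at that time. The 5 megakaryocyte and platelet markers, of which 4 exceeded the reference on 4 or more arrays and none was under it on every array, summed to between 19618 and 20737 with DMSO and between 28030 and 29509 with the extract. At 4 h that sum was between 12732 and 14970 against 14227 and 18558, with overlap. The sum was carried by Pf4, with means of 17417 against 22027 at 12 h, and Ppbp, with 2319 against 6424. The other 3 had lower means with the extract at 12 h, 45.2 against 125 for Gp1bb, 204 against 244 for Itga2b and 69.7 against 72.1 for Gp9. The sum was highest in the group where Sgpp1 was lowest, and its part in the values of Sgpp1 was not tested. Mast cell markers, 1 of 5 above the reference, summed to between 433 and 449 against 521 and 635, and T cell markers, 1 of 4 above it and 3 under it on every array, to between 251 and 287 against 363 and 363. Neutrophil markers, 3 of 7 above the reference, were lower, between 3236 and 3248 against 2770 and 3065. At 4 h 2 lists did not overlap, and both were lower with the extract, where 15.1% of all probe sets were higher and 17.6% lower without overlap. Macrophage markers, 6 of 6 above the reference, summed to between 58685 and 59428 with DMSO and between 57389 and 57422 with the extract, and mast cell markers to between 419 and 434 against 397 and 406. The part of these lists in the values of Sgpp1 was not tested either. Ppbp, a platelet chemokine, had an averaged log2 fold change of 1.26 (adjusted p = 6.93e-04, at most 0.0199 without any 1 array). The study names this gene Cxcl7 and reports it as raised by the extract in the dendritic cells at 4 h and 12 h. Of the 46 markers with a probe set over all 9 lists, Ppbp was the 1 called on the average.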

How the data were processed

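Mouse BMDCs were profiled on 8 Affymetrix mouse whole-genome arrays, 2 for each of 4 groups. The intensity values used were deposited by the authors as MAS5 signals, with a linear value for each probe set. Which MAS5 version was run is not given in the sources. The mean of each array, trimmed by 2% at each end, was 500. A probe set of 1 gene symbol in the annotation of the array was named by it, and 64 control probe sets of 45101 were left out. Members and gene lists were chosen with earlier results of these data known.

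Log2 signals of the 8 arrays were fitted with 4 group means in limma 3.58.1 (R 4.3.3, statmod 1.5.0), with an intensity trend in the moderated spread (residual degrees of freedom 4, prior 8.833). Tests were two-sided, adjusted by Benjamini-Hochberg over 45037 probe sets, with a threshold of 0.05. The fit was tested on simulated data. Genes named were the members, per role group of the pathway the 2 genes with the smallest p on the averaged effect, every pathway gene called in any comparison, and the 5 genes most correlated with Sgpp1 among genes above the reference on all 8 arrays. Of the listed pathway genes 59 of 64 had a probe set. The number of arrays limits the precision. Alternatives were quantile normalization, median centring, an offset of 50 before log2, a filter on dim probe sets (over the reference on 4 or more arrays), no intensity trend, robust moderation, the replicate block, the 4 arrays compared alone, the second brightest probe set, and each array left out in turn. Figures were drawn with matplotlib 3.10.9 in Python 3.11.15.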

Additional observations from a re-analysis of the deposited data

How the results depend on the processing

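On the average of both times 1 member, Sgpp1, was called. With the arrays centred on the median, without the intensity trend, with robust moderation and at the second brightest probe sets, 0 members were called (for Sgpp1, adjusted p = 0.204, 0.575, 0.0570 and 0.249), and 0 to 0 were called when each array was left out. Quantile normalization (0.0310), the offset of 50 (0.0495) and the filter on dim probe sets (0.0327) kept the call. For 12 h against 4 h with [BF/S+L/Ep] 1 member, Sgpl1, was called, and 0 with the arrays centred on the median, without the intensity trend, with the 4 arrays compared alone and at the second brightest probe sets, 0 to 0 with each array left out, and 2 with the filter, which added Sgpp1 (adjusted p = 0.0447). The cause was not tested. In the other comparisons 0 members were called in the main fit and under the alternatives run. Of 888 values of members under alternatives, 810 moved by less than the spread between replicates or stayed called, 53 moved by more, 24 lost a call and 1 gained one. Of the same values 51 changed sign, none of them a called value.

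Over all probe sets 48 were called on the average, 40 higher and 8 lower, against 30 and 1 with median centring, 0 without the trend and 8 to 54 in all with an array left out. The count was 948 in DMSO and 1289 with the extract between the times, against 505 and 713 with median centring (in DMSO 533 higher and 415 lower, against 215 and 290), 0 and 0 without the trend, 310 to 1013 and 481 to 1089 with an array left out and, with the extract, 711 in the 4 arrays alone. For treatment at 12 h it was 9, 7 of them higher, against 7, all higher, with median centring, 4 with the offset, 3 in the 4 arrays alone, 0 without the trend and 0 to 12 with an array left out. At 4 h it was 2, against 1 with the offset, 1 in the 4 arrays alone, 0 without the trend, 4 with the replicate block and 0 to 3 with an array left out.

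The labels number the replicates 1 and 2 in each group. Deviations of same-numbered arrays correlated between -0.03 and 0.11 over 23406 probe sets. The sources do not say whether a number marks a shared culture, and with 2 arrays in each group these correlations cannot decide it. With the replicate block the call of Sgpp1 (adjusted p = 0.0359) and that of Sgpl1 (0.0354) were kept and 56 probe sets were called on the average.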
